A study of Mus musculus with 6 samples.

Results

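Elastin and 9 genes of the microfibrils and fibulins that build elastic fibres were followed in mouse 3T3 fibroblasts with and without extra nicotinamide N-methyltransferase (NNMT). The genes were taken by name, namely elastin (Eln), the fibrillins Fbn1 and Fbn2, the microfibril-associated proteins Mfap2, Mfap4 and Mfap5, and the fibulins Fbln2, Fbln5, Efemp1 and Efemp2. All 10 were found among the 35275 genes of the deposited table. 3T3 cells are an immortalised line of mouse embryonic fibroblasts, and NNMT methylates nicotinamide with S-adenosylmethionine as the methyl donor. The NNMT cells carried an overexpression construct for NNMT and the control cells a control construct, with 3 libraries per group. Cells of both groups had 48 h in DMEM that held 10 µM methionine and 10% dialyzed fetal bovine serum. The sources used here do not give the promoter or the species of the construct, nor whether a group goes back to a single transduction or clone. The series was made to find genes that NNMT regulates at a physiological methionine level.

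Elastic fibres give skin, lung and large arteries their recoil. Fibrillins first polymerise into microfibrils, small glycoproteins decorate these, and fibulins then guide the soluble elastin monomer onto them, where lysyl oxidases cross-link it. Microfibrils can also stand alone without elastin, and they hold latent TGF-beta near the cell.

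The deposited levels have no stated unit and were taken to be FPKM, which is reads scaled by gene length and library depth. From their steps 35282979 to 39979940 reads per library were recovered in NNMT cells and 31620203 to 38876305 in control cells, so that for a 1 kb gene a single read equals 0.0250 to 0.0316 FPKM. One NNMT library has no replicate number in the table and is called the unnumbered library. Values in what follows are mean ± SD with n = 3 per group, and log2 fold changes compare NNMT with control cells on the log2(FPKM + 1) scale, which understates the change of low genes. Nnmt stood at 15.7, 15.03 and 18.3 FPKM in the NNMT libraries, against 7.60, 5.25 and 6.51 FPKM in the control libraries, without overlap, in the direction of the labels. The table's Nnmt is the mouse gene, and whether transcripts of the construct are counted there is not known. All 8 fibroblast markers looked at were above 1 FPKM in every library. Their summed level was 7899 to 9353 FPKM in NNMT cells and 5633 to 5991 FPKM in control cells, most of it Col1a1 and Col1a2. Of the 8, 4 were higher (Col1a1, Col1a2, Col3a1 and Pdgfrb) and 3 lower (Thy1, Vim and Lum). Of 7 smooth muscle markers the sum was 1151 to 1177 FPKM in NNMT cells and 886 to 924 FPKM in control cells. Nearly all of it was Acta2 and Tagln, which moved apart. Acta2 was higher (1004 FPKM in NNMT cells against 705 FPKM in control cells) and Tagln lower (145 against 180 FPKM). Of the 7 markers, 4 were under 1 FPKM throughout, with Myocd at 0. The part of these shifts in the results was not tested. The sum of 7 epithelial markers was at most 0.383 FPKM in NNMT cells and 1.13 FPKM in control cells, that of 7 endothelial markers 0.142 and 0.247 FPKM, that of 7 immune markers 2.08 and 2.88 FPKM, and that of 6 adipocyte markers 1.12 and 0.701 FPKM. Epcam, Krt18, Cd3e and Adipoq were at 0 throughout. The 6 chondrocyte markers summed to 26.2 to 30.5 FPKM in NNMT cells and 24.1 to 27.0 FPKM in control cells, almost all from Sox9. Of 10882 genes averaging 1 FPKM or more, 35.0% were higher and 30.6% lower in NNMT cells at a limma adjusted p under 0.05, so that 65.6% were called in either direction. Any count below has to be read against these shares. In cultures compared in bulk, fewer expressing cells and less RNA per cell cannot be told apart.

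The NNMT cells had more microfibril and fibulin-4 transcripts and fewer fibulin-5 and fibulin-3 transcripts, on a background of almost no elastin. Of the 10 genes, 7 reached the level for testing, and of these 4 were higher (Mfap5, Efemp2, Fbn1 and Mfap4), 2 were lower (Efemp1 and Fbln5), and Fbln2 did not pass. The call for Mfap4 was marginal and was lost in 13 of 17 alternative fits. Eln, Fbn2 and Mfap2 were too low to be tested. The groups did not overlap for 5 of the 7, where they did not for 69.9% of all tested genes. With 6 of 7 called where 65.6% of all tested genes were, the count by itself does not set these genes apart. Their median absolute log2 fold change was 0.56, against 0.24 over all tested genes. The log2(FPKM + 1) scale understates the change of low genes, and these medians were not matched for level. The members were chosen with earlier results of these data known, and the difference between the medians was not tested.

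**Figure D1:**
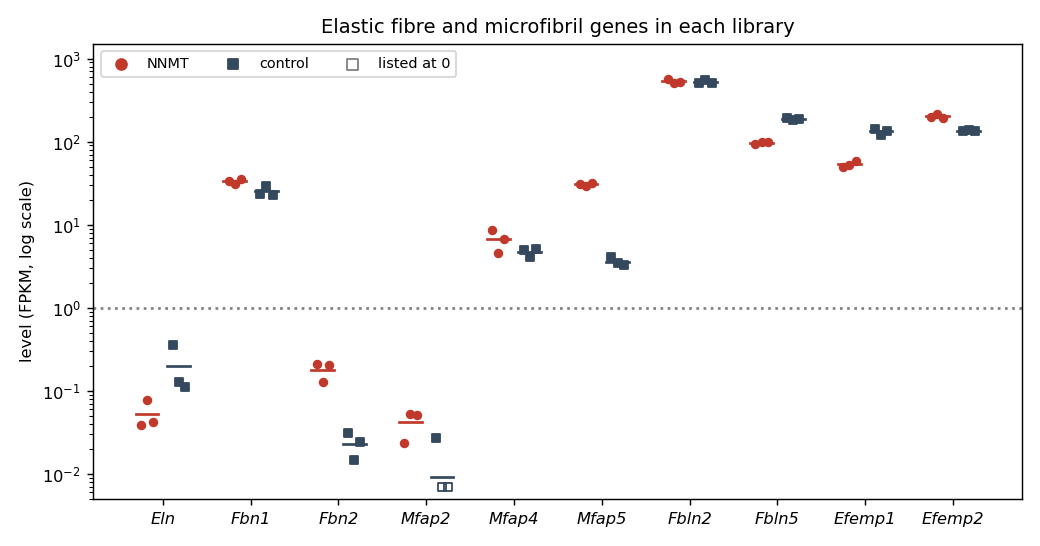
Level of the 10 genes in FPKM on a log axis, with NNMT libraries as circles and control libraries as squares, a bar at each group mean, open symbols for libraries listed at 0 and a dotted line at 1 FPKM. Mfap5 lies far higher in NNMT cells (30.7 against 3.60 FPKM), Fbln5 and Efemp1 lie lower, and Eln, Fbn2 and Mfap2 stay under the line in every library.

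Elastin, the elastic core of the fibre, was barely transcribed in either group. Eln (ENSMUSG00000029675, chromosome 5, 134702593 to 134747323 in GRCm38, minus strand) had 4, 7 and 4 reads in the NNMT libraries, against 31, 13 and 9 reads in the control libraries. These are 0.0387, 0.0767 and 0.0426 FPKM in NNMT cells and 0.353, 0.129 and 0.110 FPKM in control cells. The groups did not overlap, and the mean was 3.75-fold lower in NNMT cells. Control replicate 1 holds most of the control reads, and without it the difference was 2.27-fold. From the summed reads, 15 in NNMT cells and 53 in control cells, the ratio of NNMT to control was 0.265 with an exact 95% interval of 0.139 to 0.477, which covers counting error alone. Groups did not overlap for 39.3% of genes with a mean below 1 FPKM and at least 10 reads. The exact permutation p (two-sided) was 0.1, the lowest possible with 3 libraries a group, and with no filter on low values limma gave a log2 fold change of -0.18 (adjusted p = 0.11), which missed the threshold.

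The fibrillins form the backbone of microfibrils, and Fbn1 made up nearly all fibrillin transcripts. Fbn1 (ENSMUSG00000027204, chromosome 2, 125300594 to 125507993, minus strand) stood at 34.0, 30.9 and 35.1 FPKM in the NNMT libraries, against 23.4, 29.4 and 22.7 FPKM in the control libraries. The groups did not overlap, with control replicate 2 only just below. The means were 33.3 ± 2.19 and 25.2 ± 3.66 FPKM, a 1.32-fold difference (log2 fold change 0.40, SE 0.089, limma adjusted p = 0.00252). Fbn2, the fibrillin known mainly from development (ENSMUSG00000024598, chromosome 18, 58008623 to 58210487, minus strand), had 88, 47 and 77 reads in the NNMT libraries, against 11, 6 and 8 in the control libraries. Its level was thus 0.180 ± 0.0458 FPKM in NNMT cells and 0.0232 ± 0.00810 FPKM in control cells, 7.74-fold higher without overlap. Such a lack of overlap was seen for 39.3% of genes with a mean below 1 FPKM and at least 10 reads. The ratio of summed reads was 7.94 (exact 95% interval 5.24 to 12.6, counting error alone), and without a filter limma gave a log2 fold change of 0.20 (adjusted p = 0.00365). That fit gave Mfap2, with 5 reads against 1, a limma p of 0.0367 before adjustment (adjusted p = 0.0855). Its p-values at such low levels carry little weight. Fbn2 stayed a trace component all the same. Fbn1 exceeded it 162-fold, 243-fold and 174-fold in the NNMT libraries, against 759.6-fold, 1997-fold and 942-fold in the control libraries.

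Of the small glycoproteins that sit on microfibrils, Mfap5 showed the largest change among the 10 genes. Mfap5 (MAGP-2; ENSMUSG00000030116, chromosome 6, 122505845 to 122529290, plus strand) binds fibrillins and integrins. It stood at 30.6, 29.4 and 32.1 FPKM in the NNMT libraries, against 4.08, 3.45 and 3.26 FPKM in the control libraries. The libraries of each group lay close together and far from the other group. The means of 30.7 ± 1.36 and 3.60 ± 0.430 FPKM differ 8.53-fold, from 8545 reads in NNMT cells and 938 in control cells (log2 fold change 2.79, SE 0.070, limma adjusted p = 1.08e-09). Of the 10882 genes tested, 18 had a larger rise. With a pseudocount of 10 the log2 fold change was 1.58.

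Its close relative Mfap2 (MAGP-1; ENSMUSG00000060572, chromosome 4, 141010418 to 141015984, plus strand) was almost silent. It had 1, 2 and 2 reads in the NNMT libraries, against 1, 0 and 0 in the control libraries. The ratio of summed reads, 5 to 1, was 4.68 with an exact 95% interval of 0.524 to 222, so no difference was detectable at this depth. Mfap5 was thus the MAGP gene above 1 FPKM in both groups.

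Mfap4, a fibrinogen-domain glycoprotein that attaches to elastic fibres (ENSMUSG00000042436, chromosome 11, 61485431 to 61488900, plus strand), stood at 8.54, 4.62 and 6.83 FPKM in the NNMT libraries, against 4.95, 4.09 and 5.05 FPKM in the control libraries. NNMT replicate 2 lay inside the control range. The means were 6.66 ± 1.96 and 4.70 ± 0.525 FPKM (log2 fold change 0.40, SE 0.157, limma adjusted p = 0.0446). Over 17 alternatives the adjusted p ranged from 0.000269 to 0.199, and the call was lost without any single library but NNMT replicate 2. Without the unnumbered NNMT library the log2 fold change was 0.22 (adjusted p = 0.188), and without NNMT replicate 2 it was 0.61 (adjusted p = 0.000269). The spread in NNMT cells was wide for the depth, with a coefficient of variation of 29.5% where counting alone gives 4.74%. It shares 89 bases with Mapk7 on the other strand, and without a known strand rule of the counting reads from there cannot be told apart. Mapk7 stood at 12.4 FPKM in NNMT cells and 10.3 FPKM in control cells.

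The fibulins held most of the transcripts of the set, and they moved apart. Fbln2 (ENSMUSG00000064080, chromosome 6, 91212455 to 91272540, plus strand), which binds elastin, fibrillin and basement membrane proteins, was the most abundant of the 10 genes in each library. It stood at 574, 512 and 522 FPKM in the NNMT libraries, against 511, 551 and 509.9 FPKM in the control libraries. The groups overlapped, and the means of 536 ± 33.3 and 524 ± 23.2 FPKM were 1.02-fold apart (log2 fold change 0.03, SE 0.056, limma adjusted p = 0.625). Quantile normalization gave 0.26 (adjusted p = 0.00435), and medians of ratios scaling gave 0.00 (adjusted p = 0.949).

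Efemp2, fibulin-4, tethers lysyl oxidase to elastin and is needed for elastic fibres in mice. The gene (ENSMUSG00000024909, chromosome 19, 5473954 to 5482517, plus strand) stood at 197, 215 and 192 FPKM in the NNMT libraries, against 135, 139 and 134 FPKM in the control libraries. All NNMT libraries lay above all control libraries. The means of 201 ± 11.9 and 136 ± 3.00 FPKM differ 1.48-fold (log2 fold change 0.56, SE 0.052, limma adjusted p = 6.31e-06). It shares 173 bases with Mus81 on the other strand, which stood at 16.5 FPKM in NNMT cells and 12.7 FPKM in control cells.

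Fbln5, fibulin-5, also binds elastin and is likewise needed for elastic fibre assembly in mice. It went the other way. The gene (ENSMUSG00000021186, chromosome 12, 101746565 to 101819055, minus strand) stood at 93.0, 97.8 and 99.4 FPKM in the NNMT libraries, against 191, 182 and 185 FPKM in the control libraries. The spread within a group was small beside the gap between groups. The means of 96.8 ± 3.33 and 186 ± 4.64 FPKM make it 1.92-fold lower in NNMT cells (log2 fold change -0.94, SE 0.046, limma adjusted p = 9.29e-08).

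Efemp1, fibulin-3, is a fibulin of the connective tissue and the eye that binds TIMP3. It had the largest fall of the 7 tested genes. The gene (ENSMUSG00000020467, chromosome 11, 28853204 to 28926743, plus strand) stood at 50.2, 51.8 and 58.5 FPKM in the NNMT libraries, against 142, 122 and 134 FPKM in the control libraries. No NNMT library came near the control range. The means of 53.5 ± 4.42 and 133 ± 10.3 FPKM make it 2.48-fold lower in NNMT cells (log2 fold change -1.29, SE 0.071, limma adjusted p = 1.80e-07). Of all tested genes, 74 had a larger fall.

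**Figure D2:**
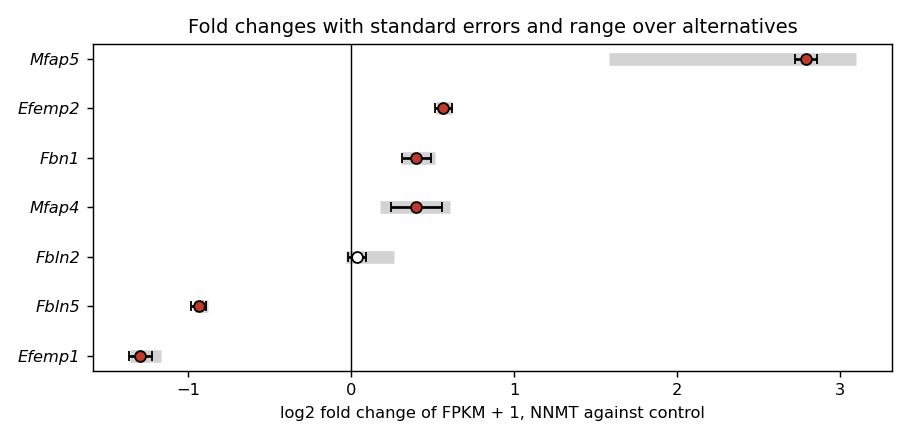
Log2 fold change of FPKM + 1, NNMT against control, for the 7 tested genes, with the standard error as whiskers, filled points for an adjusted p under 0.05 and a grey bar from the lowest to the highest of 17 alternatives. Mfap5 stands far right at 2.79, Efemp1 and Fbln5 stand left at -1.29 and -0.94, and the whisker and grey bar of Fbln2 reach 0.

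The 250 bases before the transcription start are shown for Efemp2, Fbln5 and Efemp1, the 3 of the 4 fibulins among the 10 genes that changed, because they moved in opposite directions. The sequences are from RefSeq on GRCm38.p6, 5′ to 3′ on the strand of the gene. Capitals mark GC boxes (GGGCGG or CCGCCC, bound by SP1-type factors) and AP-1 motifs (TGANTCA), searched on both strands. The start nearest to the annotated 5′ end was used for Fbln5 and Efemp2, which have further starts.
Efemp2, higher in NNMT cells, chr19:5473696-5473945, plus strand: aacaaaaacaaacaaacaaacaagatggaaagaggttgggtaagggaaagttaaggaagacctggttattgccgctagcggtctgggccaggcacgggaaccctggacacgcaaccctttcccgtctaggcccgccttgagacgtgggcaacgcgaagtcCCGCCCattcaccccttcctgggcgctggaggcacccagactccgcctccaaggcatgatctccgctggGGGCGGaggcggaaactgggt
Fbln5, lower in NNMT cells, chr12:101819120-101819369, minus strand: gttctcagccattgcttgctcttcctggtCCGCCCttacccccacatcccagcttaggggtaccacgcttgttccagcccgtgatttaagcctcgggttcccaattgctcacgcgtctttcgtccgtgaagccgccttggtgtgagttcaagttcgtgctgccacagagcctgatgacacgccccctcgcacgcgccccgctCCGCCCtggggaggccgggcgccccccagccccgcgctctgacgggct
Efemp1, lower in NNMT cells, chr11:28852955-28853204, plus strand: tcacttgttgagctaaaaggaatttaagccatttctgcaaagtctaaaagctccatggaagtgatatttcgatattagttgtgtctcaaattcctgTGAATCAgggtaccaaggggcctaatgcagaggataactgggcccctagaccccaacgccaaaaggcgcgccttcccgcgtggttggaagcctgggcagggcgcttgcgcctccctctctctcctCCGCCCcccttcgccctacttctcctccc
A GC box occurs in 32.7% of 32851 such windows and an AP-1 motif in 6.75%, and no GC box overlapped an AP-1 motif here. The Efemp2 and Fbln5 windows each hold 2 GC boxes, and the Efemp1 window holds 1 GC box and 1 AP-1 motif. CpG sites numbered 15 in Efemp2, 21 in Fbln5 and 10 in Efemp1, against a median of 6 (interquartile range 2 to 16) over all windows. So the gene that was higher lies between both genes that were lower in CpG number. Of the other members, the windows of Fbn1, Fbln2 and Mfap2 held 13, 8 and 5 CpG sites, and Eln, Fbn2, Mfap4 and Mfap5 have no entry. A match is a description of letters and not a binding site.

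The make-up of the set differed while its share of all transcripts overlapped between the groups. The 10 genes summed to 959 ± 25.4 FPKM in NNMT cells and 1012 ± 18.7 FPKM in control cells, without overlap. As a share of all FPKM this was 0.239% ± 0.00983 in NNMT cells and 0.239% ± 0.00626 in control cells (exact two-sided permutation p = 1). Within the sum, Efemp2 took 21.02% ± 1.55 in NNMT cells and 13.4% ± 0.108 in control cells. Fbln5 took 10.1% ± 0.597 in NNMT cells and 18.4% ± 0.648 in control cells, and Efemp1 took 5.59% ± 0.557 and 13.1% ± 1.16. The share of Mfap5 was 3.20% ± 0.166 in NNMT cells and 0.355% ± 0.0416 in control cells. None of these 4 shares overlapped between the groups, and each exact permutation test gave p = 0.1, the smallest possible. The shares of Fbn1, Fbn2, Eln and Fbln2 did not overlap either, and only those of Mfap2 and Mfap4 did. Fbln2 took 55.9% in NNMT cells and 51.7% in control cells, although its own level overlapped between the groups. Shares of the same sum are tied to each other and largely restate the levels of single genes, which did not overlap for 69.9% of all tested genes.

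**Figure D3:**
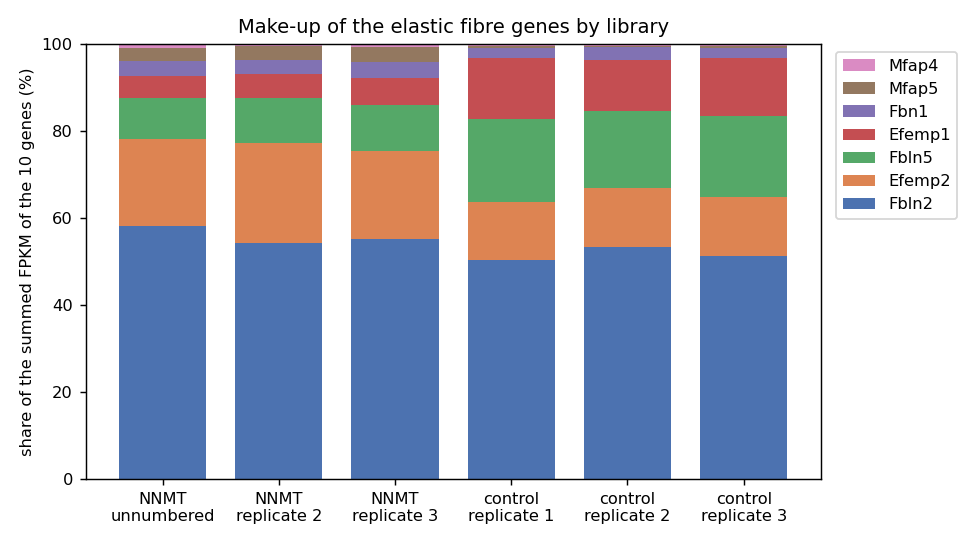
Share of each gene in the summed FPKM of the 10 genes, in percent, with 1 stacked bar per library, NNMT libraries left of control libraries. Fbln2 fills at least 50.5% of each bar, Efemp2 and Mfap5 are thicker in the NNMT bars, and Fbln5 and Efemp1 are thicker in the control bars; Eln, Fbn2 and Mfap2 are too small to draw.

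The order of the levels shifted accordingly. In NNMT cells it ran Fbln2, Efemp2, Fbln5, Efemp1, Fbn1, Mfap5, Mfap4, Fbn2, Eln, Mfap2. In control cells it ran Fbln2, Fbln5, Efemp2, Efemp1, Fbn1, Mfap4, Mfap5, Eln, Fbn2, Mfap2. Among neighbours in these orders, the ranges of Efemp2 and Efemp1 overlapped in control cells and those of Eln and Mfap2 in NNMT cells, and neither gene of these pairs was the higher one in every library of the group. The ranges of Fbn1 and Mfap5 overlapped in NNMT cells and those of Fbn2 and Mfap2 in control cells, although Fbn1 and Fbn2 were the higher ones within each library. The places of Eln, Fbn2 and Mfap2 rest on few reads. FPKM is per length, and the lengths behind it are those inferred from the values. Fbln2 lay above 99.5% of the 20528 genes detected in NNMT cells and 99.4% in control cells. Mfap5 lay above 88.4% of them in NNMT cells and 57.3% in control cells.

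Ratios between partners within a library do not depend on how that library was scaled. Efemp1 was 0.254, 0.241 and 0.305 times Efemp2 in the NNMT libraries, against 1.06, 0.876 and 1.001 times in the control libraries. The difference in the log2 ratio was -1.88. Fbln5 was 0.471, 0.455 and 0.517 times Efemp2 in the NNMT libraries, against 1.42, 1.31 and 1.39 times in the control libraries, a log2 difference of -1.51. Control cells thus carried more fibulin-5 than fibulin-4 transcript per length, and NNMT cells carried more fibulin-4. This order rests on the inferred lengths of 5829 bases for Fbln5 and 1781 bases for Efemp2, while the change in the ratio does not. Fbln5 had more reads than Efemp2 in both groups, 62916 against 40021 in NNMT cells and 113418 against 25342 in control cells. Fbln2 was 6.17, 5.24 and 5.25 times Fbln5 in the NNMT libraries, against 2.67, 3.02 and 2.76 times in the control libraries (log2 difference 0.98). The log2 ratio of Fbn1 to Fbn2 differed by -2.57 and that of Eln to Fbn1 by -2.18, both resting on few reads of Fbn2 and Eln. The groups did not overlap for any of these 5 ratios, and exact two-sided permutation tests gave p = 0.1 for each (0.1 after adjustment over the 5), the smallest that 3 against 3 allows. Each ratio holds at least 1 gene whose level already did not overlap, so the ratios restate the results of single genes. Levels did not overlap for 69.9% of all tested genes. The ratio of Mfap2 to Mfap5 was not formed, since Mfap2 is listed at 0 in 2 control libraries.

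Whole chromosome regions differ between these groups, so each gene was set beside its surroundings. None of the 10 genes is X-linked, where 305 of 338 tested genes were lower in NNMT cells. Mfap5 had a larger log2 fold change than all 70 tested genes within 5 Mb, whose median was 0.14. Of these, 34 were higher and 11 lower. Among the higher ones, Apobec1 at 0.073 Mb had a log2 fold change of 1.02 and C1s1 at 2.02 Mb one of 1.98. Efemp1 and Fbln5 were lower than each of their 30 and 39 tested neighbours, whose medians were -0.09 and -0.13. Fbn1 was higher in a region where 49 of 80 neighbours were lower and 10 higher (median -0.22). Efemp2 lay above 92.5% of its 161 neighbours, of which 80 were higher and 29 lower (median 0.13). Fbln2 lay within its surroundings, at a log2 fold change of 0.03 beside a median of 0.06. Mfap4 lay above 88.4% of its 86 neighbours, of which 36 were higher and 13 lower (median 0.12). Of the genes too low to be tested, Fbn2 had more reads in NNMT cells in a region where 19 of 34 neighbours were higher and 8 lower (median 0.20). Eln had fewer reads in NNMT cells in a region where 57 of 104 were higher and 9 lower (median 0.19). The almost silent Mfap2 lies where 43 of 59 neighbours were lower, with a median of -0.29.

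**Figure D4:**
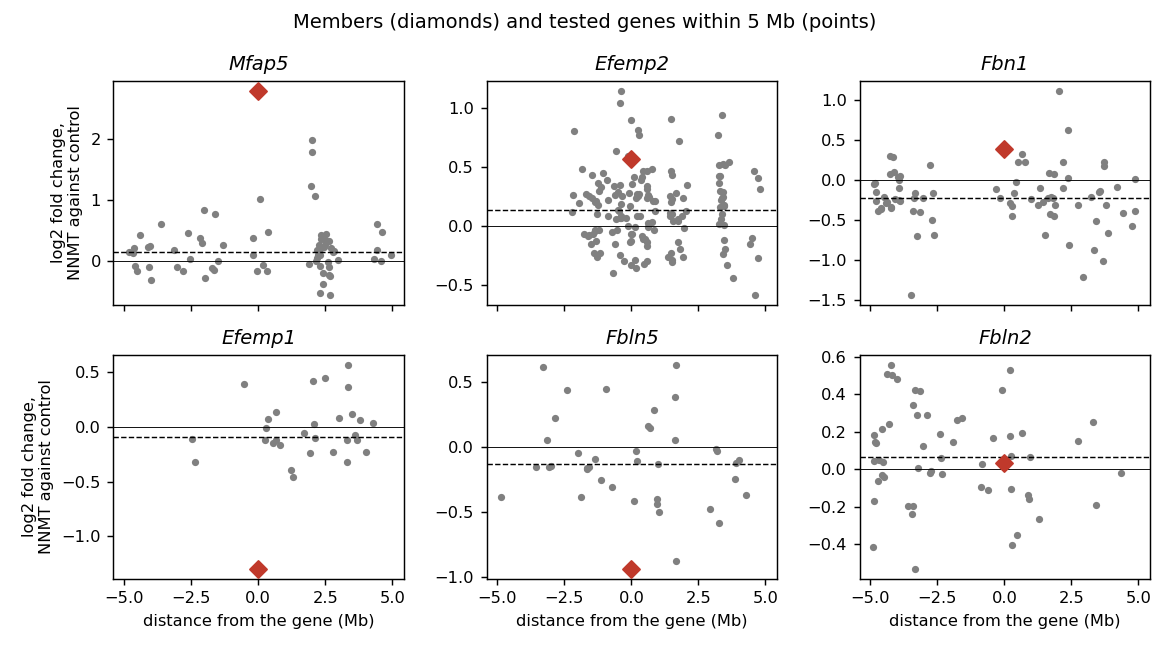
Log2 fold change of FPKM + 1, NNMT against control, for 6 of the genes (diamonds) and the tested genes within 5 Mb of each (points), against distance in Mb, with a dashed line at the median of the neighbours; the vertical scales differ between panels. The Mfap5 diamond lies above all neighbours, those of Efemp1 and Fbln5 lie below all, and that of Fbn1 lies above a median of -0.22.

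The genes whose log2(FPKM + 1) ran most like that of Efemp1 over the 6 libraries were 1810030O07Rik (Pearson r = 0.9998), Npc2 (r = 0.999) and Rtl8a (r = 0.999) among 7844 protein-coding genes that averaged 5 FPKM or more. For Eln they were 2310009B15Rik (r = 0.983), Vipas39 (r = 0.978) and Abhd16a (r = 0.976). The Eln profile rests on 15 reads in NNMT cells and 53 in control cells, of which control replicate 1 holds 31. Its r values thus hang largely on that library and on counting noise. The 6 libraries fall into 2 groups, and these r are given as a description, with no test.

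The wider machinery of elastic fibres was described with 6 lists of genes that work with the 10. Of 61 tested genes in these lists, 33 were higher and 14 lower in NNMT cells, where 35.0% and 30.6% of all tested genes were. The median log2 fold change of the 61 was 0.23, and that of all tested genes was 0.03. The counts of each list below stand beside the same shares. Fbln1 and Tgfb2 reached the level for testing through the NNMT cells alone, and Tll1, with far more reads in control cells, did not reach it. Of the 14 genes in the list of microfibril-associated relatives, 7 were tested. All 7 rose, where 35.0% of all tested genes did, with a median of 0.77. The list was chosen with earlier results of these data known, so this count is a description and not a test. Fbln1, a fibulin of the elastin core, stood at 4.46, 3.30 and 4.40 FPKM in the NNMT libraries, against 0.145, 0.112 and 0.0777 FPKM in the control libraries (log2 fold change 2.18, SE 0.097, limma adjusted p = 4.88e-08). It reached the level for testing through the NNMT cells alone. The latent TGF-beta binding proteins bind fibrillin, and Ltbp3 and Ltbp2 were 1.71-fold and 1.93-fold higher, at 155 ± 13.9 and 80.1 ± 6.16 FPKM in NNMT cells. Ltbp1 and Ltbp4 rose less, by log2 fold changes of 0.44 and 0.31. Emilin1, found where elastin meets microfibrils, rose 2.01-fold and Emilin2 1.48-fold. The remaining 7, among them Hmcn1, Vwa1 and Mmrn2, were below 1 FPKM in each library.

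The cross-linking list had 5 of 9 tested genes higher and 2 lower (median 0.23). Lox, the lysyl oxidase that fibulin-4 binds, stood at 789.9, 820.0 and 814 FPKM in the NNMT libraries, against 404, 387 and 386 FPKM in the control libraries (log2 fold change 1.04, SE 0.043, limma adjusted p = 2.93e-08). Loxl1, the oxidase that fibulin-5 binds in mice, rose by 0.23 (adjusted p = 0.0125). Postn, which binds the Lox-activating protease Bmp1, rose 3.90-fold, and Bmp1 itself rose 1.37-fold. The copper transporter Atp7a, which loads lysyl oxidases, was 1.91-fold lower at 2.63 ± 0.183 FPKM in NNMT cells and 5.04 ± 0.222 FPKM in control cells. Atp7a is X-linked, and the median log2 fold change of tested X genes was -0.70; the part of this in its change was not tested. Tll1, a protease of the Bmp1 family, averaged too low to be tested but had 6 reads in NNMT cells and 639 in control cells; it was picked after its values were seen. Of 4 tested ADAMTS and ADAMTS-like genes, Adamtsl4, whose product binds fibrillin-1, rose 2.29-fold, Adamts10 and Adamtsl5 fell by 0.26 and 0.21 on the log2 scale, and Adamts6 was at 0.17 (adjusted p = 0.0588).

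Assembly partners and receptors were mixed, with 7 of 16 tested genes higher and 5 lower (median 0.13). The integrin chain Itgb3 rose 1.64-fold and Itgb5 1.45-fold, while the shared chain Itgb1 fell by 0.34 and Itgav by 0.17 on the log2 scale. Fibronectin (Fn1), on whose network fibrillin is laid down, rose by 0.43. The protease Furin, which trims profibrillin, fell by 0.43, to 21.4 ± 1.67 FPKM in NNMT cells against 29.2 ± 0.993 FPKM in control cells. The likewise X-linked proteoglycan Bgn was 1.65-fold lower. Ctsa, a partner of the elastin-binding protein made from Glb1, rose 1.34-fold, and Glb1 fell by 0.17.

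Among elastin-degrading proteases and their inhibitors, 6 of 11 tested genes were higher and 2 lower (median 0.14). The proteases Mmp9 and Ctsk rose 10.1-fold and 5.94-fold, and Cela1, of the pancreatic elastase family, rose 3.44-fold to 11.7 ± 1.18 FPKM. Slpi, an inhibitor of neutrophil elastase, rose 11.0-fold. Slpi, Ctsa and Mmp9 are close neighbours on chromosome 2, starting at 164354070, 164832873 and 164940780, and their surroundings were not examined. Timp1, which is X-linked, and the cathepsin inhibitor Cst3 fell by 0.56 and 0.39 on the log2 scale. Timp2, the most abundant Timp at 202 ± 5.81 FPKM in NNMT cells and 170 ± 5.54 FPKM in control cells, rose by 0.25. Ctsl rose by 0.14. The abundant proteases Mmp2 and Mmp14 and the inhibitor Timp3 did not pass, with log2 fold changes of 0.03, 0.03 and 0.08. The TGF-beta list had 7 of 14 tested genes higher and 3 lower (median 0.11). The receptor Tgfbr2 stood at 55.1, 45.6 and 52.3 FPKM in the NNMT libraries, against 23.3, 19.03 and 20.7 FPKM in the control libraries. It rose by 1.24 on the log2 scale (SE 0.083, limma adjusted p = 7.05e-07). The ligand Tgfb2 stood at 2.21 ± 0.188 FPKM in NNMT cells and 0.568 ± 0.0800 FPKM in control cells, so that it too reached the level for testing through the NNMT cells alone. Its log2 fold change was 1.03, and 0.21 to 1.96 over the alternatives. Tgfb1 rose by 0.48, Tgfb3 fell by 0.45, and the inhibitory Smad6 rose by 0.85.

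**Figure D5:**
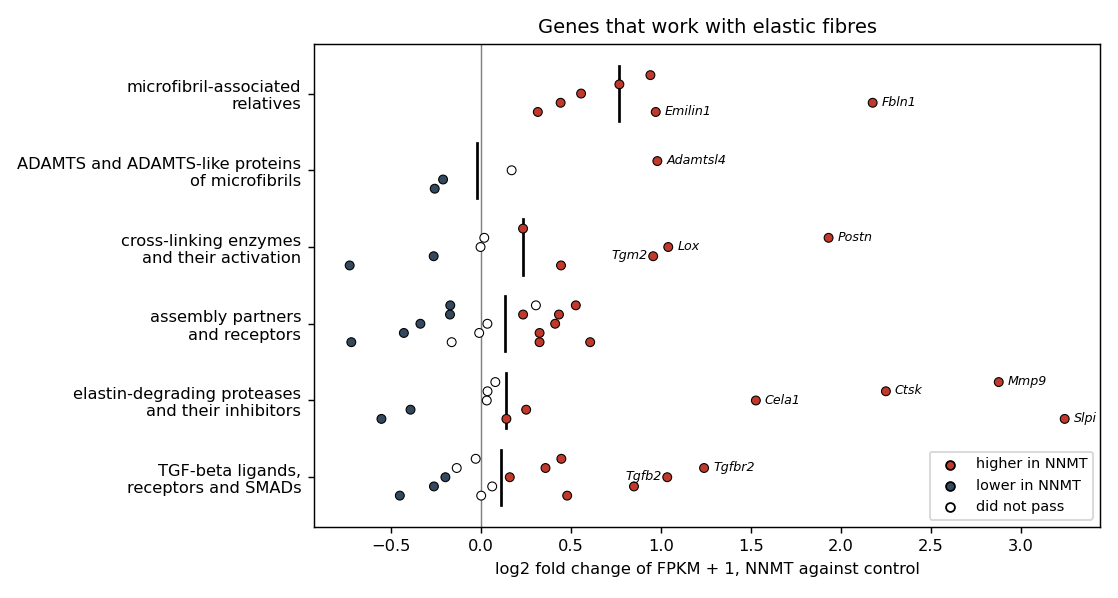
Log2 fold change of FPKM + 1, NNMT against control, for the tested genes of the 6 related lists, with a vertical bar at each list's median. All 7 tested microfibril-associated relatives lie right of 0, while the other lists hold genes on both sides. Among the 7, Fbln1 reached the level for testing through the NNMT cells alone.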

How the data were processed

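The 6 libraries were made from 3T3 cells with an NNMT or a control construct. The deposited table gives 1 value per gene and library without a unit; the authors' values were read as FPKM, since each is a whole multiple of a step that depends on gene length and library (20528 of 20528 genes above 0, within 0.01 of a read). Per the submitters' processing notes the tools include CASAVA and STAR 2.5 and the build is mm10; for the counter, its strand rule and the annotation the sources used here give nothing. Symbols and coordinates come from GENCODE M21 on GRCm38, which paired 34490 of 35275 IDs. The members, the lists and the tests were chosen with earlier results of these data known.

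Genes averaging 1 FPKM or more entered limma 3.58.1 (R 4.3.3) as log2(FPKM + 1) values (mean-variance trend, robust moderation, two-sided, Benjamini-Hochberg over 10882 genes, threshold 0.05), and the code was tested on simulated data. Fold values are ratios of group mean FPKM, given where each group had at least 10 reads. Intervals are exact binomial (scipy 1.17.1) and cover counting error only. Named genes are the 10 members, Nnmt, the 3 smallest adjusted p of each list, members an account turns on, and the 3 genes most like Eln and Efemp1. Libraries of a group differed beyond counting noise (chi-square per degree of freedom 5.53 to 19.9). The series' design text calls them biological replicates, and whether they are separate cultures or separate transductions is not stated, so p-values measure the spread between these libraries. Alternatives changed the scaling, filter, pseudocount, moderation, model, block and set of libraries.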

Additional observations from a re-analysis of the deposited data

How the results depend on the processing

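Mfap5, Efemp2 and Fbn1 stayed higher and Efemp1 and Fbln5 stayed lower past the threshold in all 17 alternative fits, with log2 fold changes of 1.58 to 3.10, 0.52 to 0.62, 0.31 to 0.51, -1.36 to -1.17 and -0.96 to -0.88. Mfap4 lost its call in 13 of 17. Counts of members were 3 or 4 higher and 2 lower in each, though not always the same genes. Without a filter Fbn2 was among the higher ones (limma adjusted p = 0.00365) and Mfap4 was not (adjusted p = 0.14). Over all genes, 3607 were higher and 3565 lower with quantile normalization, 3565 and 3609 with medians of ratios scaling, and 3837 and 3357 with limma-voom on recovered reads. Genes higher numbered 3383 to 3858 and genes lower 2968 to 3355 when 1 library was left out.

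Only replicate numbers 2 and 3 stand on columns of both groups, so the fit with the replicate block used those 4 libraries. It called 3910 genes higher and 3199 lower, and 4 members higher and 2 lower, against 3670 and 2958 genes and 3 and 2 members in the same libraries without the block (this last fit was added after seeing the data). Deviations from the group mean correlated at 0.21 for the pair numbered 2 and 0.11 for the pair numbered 3, at 0.31 for the unnumbered NNMT library with control replicate 1, and at 0.21 for the unlike pair of NNMT replicate 2 with control replicate 3. With 2 numbered pairs the number was not taken as a pairing, and whether the libraries are paired is not known.

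With 0.1 FPKM added to both genes, the log2 difference became -0.76 for Fbn1 to Fbn2 and -1.29 for Eln to Fbn1, smaller by the construction of that scale. The median of the surroundings within 2 Mb became -0.26 for Mfap2, 0.14 for Mfap4, 0.0035 for Mfap5 and 0.10 for Efemp2. Within 10 Mb it became 0.070 for Fbn2, -0.33 for Mfap2, 0.078 for Mfap4, 0.10 for Mfap5, -0.16 for Fbln5, -0.012 for Efemp1 and 0.17 for Efemp2; the windows hold different genes. Depth limits Eln, Fbn2 and Mfap2, with 15, 212 and 5 reads in NNMT cells and 53, 25 and 1 in control cells.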
